A study of Homo sapiens with 4 samples.

Results

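The V1 sector of the vacuolar H+-ATPase (V-ATPase) was followed in HepG2, an established liver cancer cell line, after inhibition of the microRNA miR-191. Its 8 transcripts were chosen by gene symbol: ATP6V1A, ATP6V1B2, ATP6V1C1, ATP6V1D, ATP6V1E1, ATP6V1F, ATP6V1G1 and ATP6V1H. Each had 1 probe set with a single symbol on the array, out of 18417 genes so represented. All 8 were bright enough to be among the 14147 genes tested. They were picked with the difference between anti-miR-191 and control already known, because ATP6V1A and ATP6V1C1 changed in opposite ways in the 2 experiments, so the values of the 8 genes are a description and carry no test.

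HepG2 cells were transfected with anti-miR-191, which inhibits this microRNA, or with a negative control anti-miR (anti-miR-NC, called control below), by means of a lipid reagent. Each of 2 independent experiments contributed a pair of arrays, 1 per treatment, so there were 4 arrays in all. Dose and time are not given in the labels. The deposited values were log2 intensities computed with RMA, the usual summary of Affymetrix probe sets, with array medians between 4.37 and 4.43. Their spread differed between the groups. The interquartile range was 3.38 and 3.43 after anti-miR-191 and 3.18 and 3.24 in controls. A change below is anti-miR-191 minus control within an experiment on the log2 scale. A mean change is the mean of both experiments, with the SD of the 2 changes as its error for the V1 subunits. For all other genes, an error after ± is the SE of limma's fit with the experiment as a block. RNA came from whole cultures, so fewer cells of a kind and less RNA per cell cannot be told apart.

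Of 8 hepatocyte markers the median level was between 9.67 and 10.68 on the 4 arrays and the highest, APOA1, read 11.00 to 11.60. The lowest, the fibrinogen gene FGB, read 4.72 to 5.59, within the range of the markers of other cell types. Of 11 markers of other cell types, the leukocyte gene PTPRC was lowest (2.44 to 2.68), and the highest on each array, COL1A1 or DES, read between 6.05 and 6.13. Their summed level was 46.3 and 46.3 after anti-miR-191 and 46.9 and 46.0 in controls. Since markers of other cell types read as high as that, the levels of ATP6V1C1 and ATP6V1D, between 4.07 and 5.27 on every array, are not shown to be above background. The same holds for 3 of the 4 values of ATP6V1A, all but the control of experiment 2, and for the control of experiment 1 of ATP6V1H (5.95). The arrays do not measure mature miR-191, so its inhibition was not checked here.

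The V-ATPase is a rotary proton pump that acidifies lysosomes, endosomes and secretory compartments. The cytosolic V1 sector splits ATP and turns a rotor, and the membrane-bound V0 sector passes protons. Within V1, alternating A and B subunits form the catalytic ring, D and F form the central rotor, E and G form the peripheral stalks, and C and H join V1 to V0. V1 can detach from V0 and rejoin it, and the assembled pump on the lysosome also takes part in amino acid sensing by the kinase complex mTORC1.

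The mature arms of miR-191 are shown because the agent was directed at this microRNA. The labels do not say which arm was targeted. Sequences are from RefSeq (GRCh38.p14, chr3:49020672-49020694 for the 5p arm and chr3:49020631-49020652 for the 3p arm, minus strand), and capitals mark the seed, bases 2 to 8, which pairs with targets.
hsa-miR-191-5p: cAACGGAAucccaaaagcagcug
hsa-miR-191-3p: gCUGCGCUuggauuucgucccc

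Promoters are shown for 3 members whose transcripts went different ways: ATP6V1D and ATP6V1G1, with positive changes, and ATP6V1F, with negative ones. RefSeq windows of 300 bases, 250 before and 50 after the gene start, were at hand for 4 of the 8 members, these 3 and ATP6V1E1. They are written 5' to 3' on the gene's strand. Capitals mark the letters CACGTG (the E-box core bound by TFEB and related factors, with its flanks in capitals too where GT stands before it and AC after it), CCGGAA (the core of ETS sites), TGACTCA (the AP-1 motif), CCAAT (the CCAAT box) and GGGCGG (a GC box). All were searched on both strands, and the flanked E-box is also counted as an E-box.
ATP6V1G1, chr9:114587519-114587818, plus strand, GRCh38.p14: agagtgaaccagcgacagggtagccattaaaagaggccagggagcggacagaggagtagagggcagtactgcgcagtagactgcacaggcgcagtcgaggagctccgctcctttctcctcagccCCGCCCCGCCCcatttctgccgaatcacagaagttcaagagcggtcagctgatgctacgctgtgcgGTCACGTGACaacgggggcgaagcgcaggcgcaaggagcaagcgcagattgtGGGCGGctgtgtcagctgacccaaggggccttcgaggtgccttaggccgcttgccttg
ATP6V1D, chr14:67359755-67360054, minus strand, GRCh38.p14: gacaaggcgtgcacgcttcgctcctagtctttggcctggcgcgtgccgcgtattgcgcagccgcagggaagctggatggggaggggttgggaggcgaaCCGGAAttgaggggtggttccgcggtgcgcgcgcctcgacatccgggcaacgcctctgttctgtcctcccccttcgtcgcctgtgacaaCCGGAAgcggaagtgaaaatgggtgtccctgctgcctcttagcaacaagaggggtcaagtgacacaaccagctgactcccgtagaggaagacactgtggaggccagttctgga
ATP6V1F, chr7:128862606-128862905, plus strand, GRCh38.p14: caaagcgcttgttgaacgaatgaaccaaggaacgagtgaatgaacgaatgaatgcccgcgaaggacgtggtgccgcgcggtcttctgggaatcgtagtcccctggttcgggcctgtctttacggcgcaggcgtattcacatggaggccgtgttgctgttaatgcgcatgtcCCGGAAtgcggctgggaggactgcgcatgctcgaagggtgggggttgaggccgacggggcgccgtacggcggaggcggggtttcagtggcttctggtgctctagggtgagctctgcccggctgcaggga

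The ATP6V1G1 window held the flanked E-box, with its CACGTG starting 58 bases before the gene start, and 3 GC boxes. Of all 35116 promoter windows of this length, 0.353% held the flanked E-box, 7.26% held an E-box with any flanks, 45.0% held a GC box and 4.95% held the AP-1 motif. CCGGAA was found at 2 places in the ATP6V1D window and at 1 in the ATP6V1F window, and in 17.2% of all windows. Neither held an E-box, an AP-1 motif, a CCAAT box or a GC box. For ATP6V1E1 both annotated start windows held CCAAT, as did 34.6% of all windows, and both held 1 GC box. The window at chr22:17628700-17628999 also held CCGGAA. No E-box and no AP-1 motif stood in either. Without both flanks, the E-box also stood in windows of the V0 genes ATP6V0B, ATP6V0D1 and ATP6V0E2, which had negative changes in both experiments. The windows of ATP6V0A1 and ATP6V0A2, with positive changes, held none, nor did those of ATP6V0C and ATP6AP1, with negative ones. A match is a stretch of letters and not a shown binding site.

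Most V1 transcripts were higher after anti-miR-191, 1 was lower, and 2 were higher in experiment 1 and lower in experiment 2. Changes were positive in both experiments for 5 of the 8 (ATP6V1B2, ATP6V1D, ATP6V1E1, ATP6V1G1 and ATP6V1H), beside 36.5% of all genes tested. They were negative in both for ATP6V1F alone, beside 33.0% of all genes. They were of opposite sign for ATP6V1A and ATP6V1C1, beside 30.4% of all genes. The median change of the 8 was 0.49 in experiment 1 and 0.27 in experiment 2, and that of all genes tested was 0.02 and 0.01. Both anti-miR-191 arrays lay above both controls for 4 members (29.4% of all genes tested), and below both for 1 member (23.8% of all genes). Because the members were chosen with this contrast known, nothing is read from these counts.

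**Figure D1:**
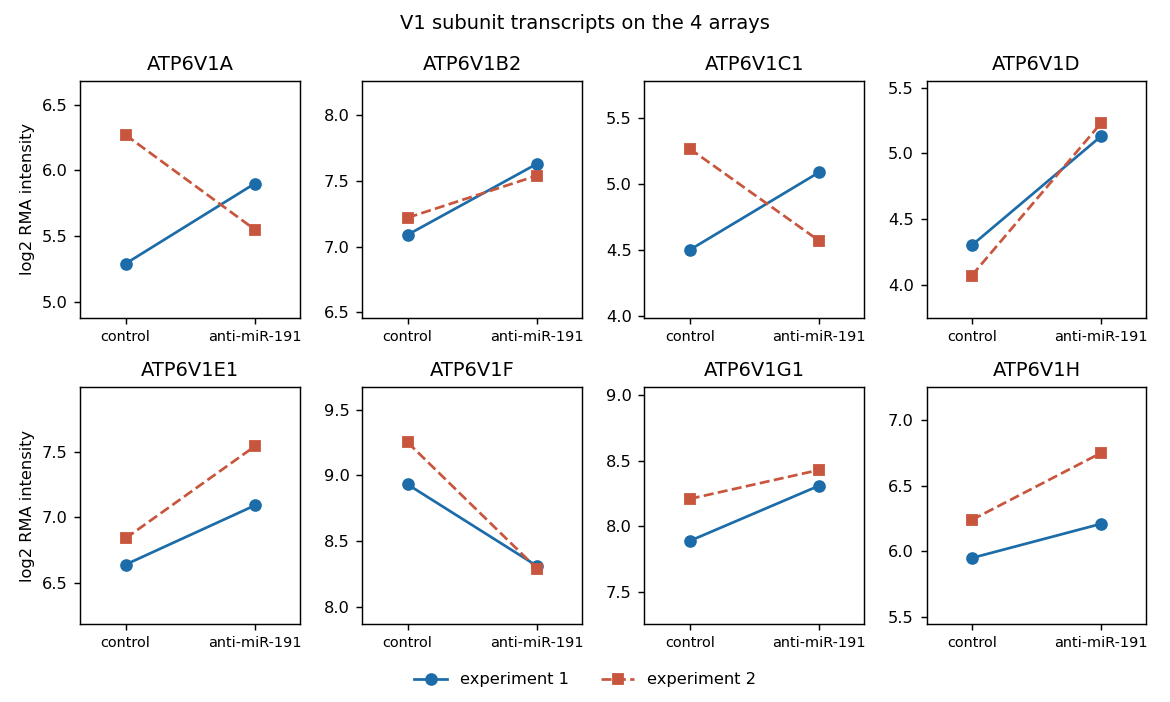
Log2 RMA intensity (y axis, the same span in every panel) of each V1 subunit transcript in control and anti-miR-191 cultures (x axis), with a line joining the 2 arrays of an experiment and each point 1 array. The lines cross for ATP6V1A and ATP6V1C1, both slope down for ATP6V1F, and both slope up for the other 5 genes, most steeply for ATP6V1D (0.84 and 1.16).

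ATP6V1A, the catalytic subunit that binds and splits ATP, read 5.29 in the control and 5.90 after anti-miR-191 in experiment 1. In experiment 2 it read 6.27 in the control and 5.55 after anti-miR-191. The lowest and the highest of the 4 values were both controls, and the anti-miR-191 values lay between them. Its changes were 0.61 and -0.73, with a mean of -0.06 ± 0.95.

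ATP6V1B2, the B subunit isoform found in most tissues, completes the ring with A but does not split ATP itself. It read 7.09 and 7.22 in the controls of experiments 1 and 2, and 7.63 and 7.54 after anti-miR-191. The groups did not overlap, and the change was 0.53 in experiment 1 and 0.32 in experiment 2 (mean 0.42 ± 0.15). Thus the B subunit had 2 positive changes where its ring partner A had changes of opposite sign.

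The rotor subunits D and F parted in the same way in both experiments. ATP6V1D, the rotor shaft, read 4.30 and 4.07 in controls and 5.13 and 5.23 after anti-miR-191. Its changes of 0.84 and 1.16 gave a mean of 1.00 ± 0.23, or 1.99-fold, which was the largest mean change among the 8. All 4 values of ATP6V1D lie in the range of the markers of other cell types. Rows with a mean level below 3.41 were left out as dim.

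ATP6V1F, the small subunit that binds D in the rotor, read 8.93 and 9.25 in controls and 8.31 and 8.29 after anti-miR-191. Its groups did not overlap, and the anti-miR-191 values of both experiments were within 0.02 of each other. The changes were -0.61 and -0.96, with a mean of -0.79 ± 0.25, so that it was 1.73-fold lower.

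Both peripheral stalk subunits read higher after anti-miR-191. ATP6V1E1 read 6.64 and 6.84 in controls and 7.09 and 7.54 after anti-miR-191, with changes of 0.45 and 0.69 (mean 0.57 ± 0.17, or 1.49-fold). ATP6V1G1, its partner in the stalk, read 7.89 and 8.21 in controls and 8.31 and 8.43 after anti-miR-191. Its changes were 0.42 and 0.22, with a mean of 0.32 ± 0.15. The groups did not overlap for either gene, and for ATP6V1G1 the nearest values of the groups were the control of experiment 2 (8.21) and the anti-miR-191 array of experiment 1 (8.31).

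The 2 subunits that join V1 to V0 differed. ATP6V1H, which is needed for the activity of the assembled pump, read 5.95 and 6.24 in controls and 6.21 and 6.75 after anti-miR-191. Its changes were 0.25 and 0.52 (mean 0.38 ± 0.19), but the groups overlapped, since the control of experiment 2 lay above the anti-miR-191 array of experiment 1.

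ATP6V1C1, which holds the peripheral stalks to V0 and leaves when the pump comes apart, read 4.50 in the control and 5.09 after anti-miR-191 in experiment 1. In experiment 2 it read 5.27 in the control and 4.57 after anti-miR-191. As for ATP6V1A, the controls were both the lowest and the highest value. The changes were 0.59 and -0.70, with a mean of -0.06 ± 0.91.

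ATP6V1A and ATP6V1C1 were the members with changes of opposite sign, and both passed 1.5-fold (0.585 on the log2 scale) in each experiment. Opposite changes of that size were seen in 25 genes, 0.177% of all tested, and in 17 of these the higher value after anti-miR-191 was in experiment 1. ATP6V1C1 was just inside that fold in experiment 1 (0.59). No other member had changes of opposite sign, and the smallest change with the same sign in both was 0.22 (ATP6V1G1, experiment 2). With 1 array per group in each experiment, the difference between the experiments has no replicates and was not tested. The signs stayed opposite for both genes when the arrays were rescaled by their medians, by quantile normalization or by cyclic loess. Their changes in experiment 1 fell below 1.5-fold under quantile normalization (0.51 for ATP6V1A and 0.54 for ATP6V1C1) and cyclic loess (0.55 and 0.57), and that of ATP6V1C1 also under median centring (0.57).

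**Figure D2:**
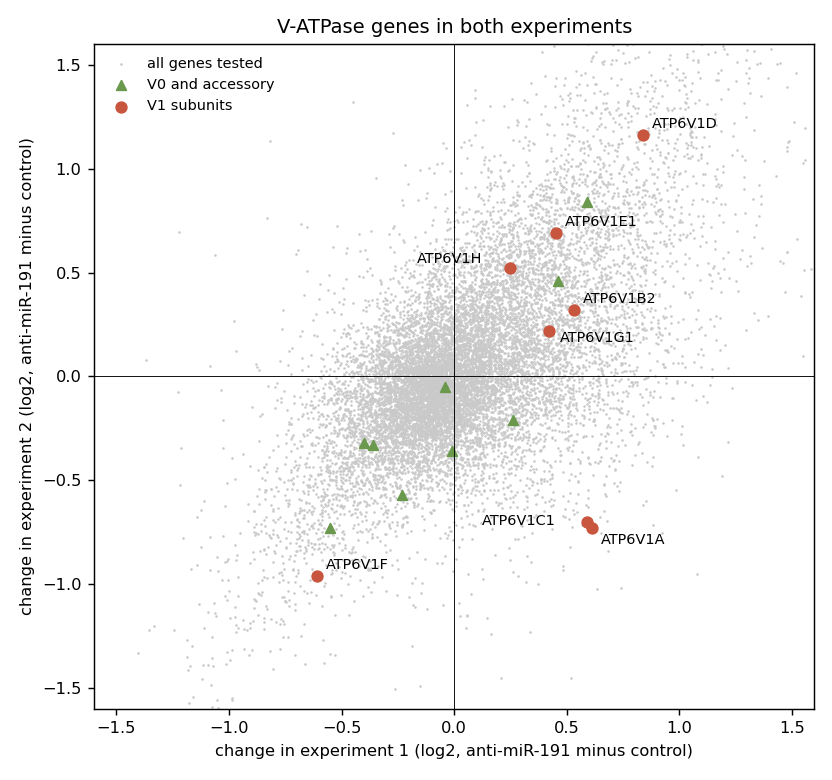
Change in experiment 1 (x axis) against change in experiment 2 (y axis), both as anti-miR-191 minus control in log2 units, for V1 subunits (circles), V0 and accessory genes (triangles) and all 14147 genes tested (grey, of which 191 lie beyond the axes). ATP6V1A and ATP6V1C1 lie side by side at lower right, while ATP6V1D lies at upper right and ATP6V1F at lower left.

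The opposite changes came with control cultures that differed between the experiments. The control of experiment 2 exceeded that of experiment 1 by 0.99 for ATP6V1A and by 0.77 for ATP6V1C1, and 1.13% and 3.18% of all genes tested differed by as much in either direction between controls. The anti-miR-191 arrays differed the other way, by -0.35 for ATP6V1A (18.3% of genes differed by as much) and by -0.52 for ATP6V1C1 (7.75%). Both genes were picked for their opposite changes, which need a difference between experiments in at least 1 group. Nothing is therefore read from these shares. For the other 6 members the controls differed by between -0.23 and 0.33. Their anti-miR-191 arrays differed by between -0.09 and 0.55, most for ATP6V1H (0.55) and ATP6V1E1 (0.45), which were higher in experiment 2 in both groups.

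**Figure D3:**
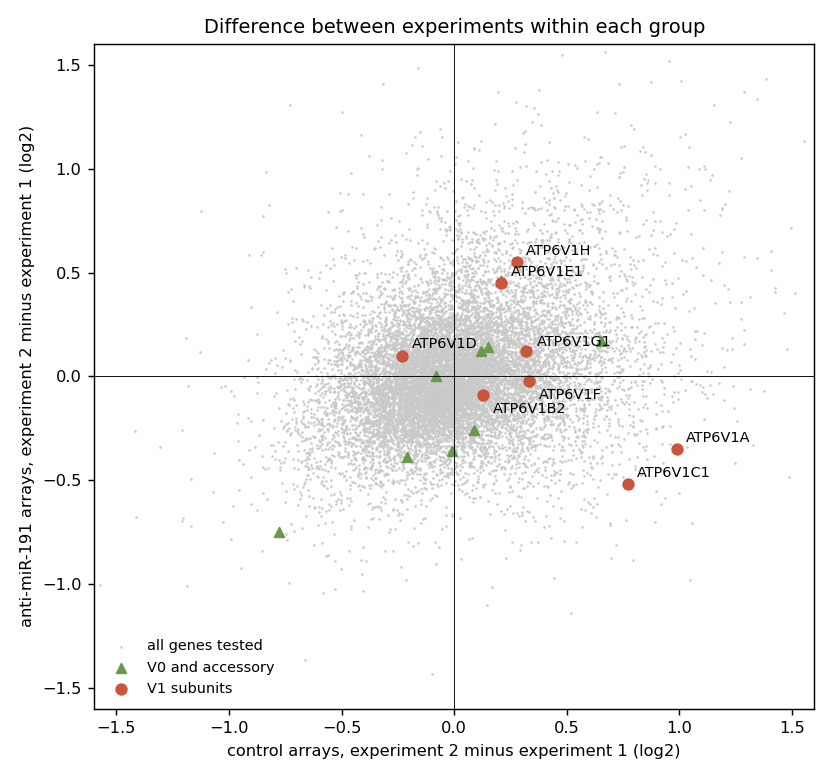
Difference between experiment 2 and experiment 1 in log2 units, among controls (x axis) and among anti-miR-191 arrays (y axis), for V1 subunits (circles), V0 and accessory genes (triangles) and all genes tested (grey, of which 38 lie beyond the axes). ATP6V1A and ATP6V1C1 are farthest to the right among V1 subunits (0.99 and 0.77) and lie below 0 on the y axis.

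Changes of opposite sign were also seen for 5 of 8 hepatocyte markers, beside 30.4% of all genes. For APOB, FGB and TF the change in experiment 1 was only 0.02, 0.01 and 0.03, so their opposite signs rest on values near 0. Named after their values were seen, serum albumin (ALB) had changes of 0.48 and -0.93, alpha-fetoprotein (AFP) of 0.16 and -1.24, apolipoprotein B (APOB) of 0.02 and -1.09, FGB of 0.01 and -0.88, and transferrin (TF) of 0.03 and -0.35. The other 3 markers had changes below 0 in both experiments. The thyroxine carrier TTR fell by 1.04 ± 0.14 (changes of -1.01 and -1.07; SE of the fit with the experiment as a block; limma's adjusted p = 0.00567, and 0.0379 without the block). APOA1 had changes of -0.40 and -0.56, and SERPINA1 had changes of -0.03 and -0.09. The summed level of the 8 markers was 78.7 in the control and 77.9 after anti-miR-191 in experiment 1, and 80.4 and 74.2 in experiment 2. Their part in the values of ATP6V1A and ATP6V1C1 was not tested.

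The genes with profiles most like ATP6V1A and ATP6V1C1 were found by the Euclidean distance between log2 values over the 4 arrays, each gene centred on its own mean. For ATP6V1A these were HSPH1, a chaperone of the HSP110 family (distance 0.04, changes of 0.65 and -0.68), SMARCA5, a chromatin remodelling ATPase (0.06), HSP90AB3P, a pseudogene whose probes may also read its parent gene (0.08), and NDUFA5 of respiratory complex I (0.09). For ATP6V1C1 they were OSMR, the oncostatin M receptor (0.12, changes of 0.59 and -0.62), ECHDC1, EIF3E, a subunit of translation initiation factor 3, and LPA (0.13 each). ATP6V1A and ATP6V1C1 were 0.19 from each other. NDUFA5 and LPA read as low as 3.45 and 3.44, near the limit for dim rows. In the control of experiment 1, HSPH1 (5.97), SMARCA5 (5.23), ECHDC1 (5.74) and EIF3E (6.01) lay within the range of the markers of other cell types. After anti-miR-191 so did SMARCA5 in both experiments (5.91 and 5.57), and ECHDC1 (5.98) and EIF3E (5.91) in experiment 2. Likeness over 4 arrays is a description, and these 8 genes were picked for it.

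The V0 sector and accessory proteins, from a list of 10 genes of which 9 were tested, had changes below 0 in both experiments for 6 genes (33.0% of all genes tested) and above 0 in both for 2 (36.5%). The words rose and fell are kept for genes with limma's adjusted p under 0.05 over all 14147 genes, in the fit with the experiment as a block. In that fit 1 of the 9 rose and 1 fell. Of all genes tested 13.9% passed, 10.1% higher and 3.77% lower. The median change of the 9 was -0.04 in experiment 1 and -0.32 in experiment 2, beside 0.49 and 0.27 for V1, and the difference between the sectors was not tested.

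ATP6V0A2, an isoform of the large membrane subunit through which protons pass, read 5.25 and 5.46 in controls and 5.84 and 6.30 after anti-miR-191. It rose by 0.72 ± 0.15 (SE of the fit, limma's adjusted p = 0.0207). Its control levels and its anti-miR-191 level in experiment 1 are not shown to be above background, so the size of the difference is uncertain. The isoform ATP6V0A1 had changes of 0.46 and 0.46 and did not pass (limma's adjusted p = 0.0763). ATP6V0E2, a small membrane subunit, read 8.38 and 8.17 in controls and 7.83 and 7.45 after anti-miR-191, and fell by 0.64 ± 0.15 (limma's adjusted p = 0.0282). Without the block, limma called 0 of the 9, beside 3.91% of all genes, with an adjusted p of 0.107 for ATP6V0A2 and 0.121 for ATP6V0E2. In limma's fit without the block 5 of the 9 had an unadjusted p under 0.05, beside 3048 of all 14147 genes.

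The other V0 genes did not pass. The proteolipids of the rotating ring, ATP6V0B and ATP6V0C, had mean changes of -0.35 and -0.40, and ATP6V0E1 had a mean change of -0.36. ATP6V0D1, which couples the rotor to that ring, had changes of -0.04 and -0.05. Of the accessory proteins, ATP6AP1 had changes of -0.01 and -0.36, and ATP6AP2, the prorenin receptor, had changes of 0.26 and -0.21.

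Isoforms typical of other tissues were dim or little different between groups. ATP6V1G3 and ATP6V0D2, isoforms of kidney and of kidney and osteoclasts, read between 2.46 and 2.84 on all 4 arrays and were not tested. ATP6V1B1, the renal and inner ear form of B, read 4.93 and 4.87 in controls and 4.82 and 4.64 after anti-miR-191. TCIRG1, the V0 subunit of osteoclasts, read 6.71 and 6.43 in controls and 6.77 and 6.56 after anti-miR-191. Of the 4 such isoforms tested, ATP6V1B1, ATP6V1C2, ATP6V1E2 and TCIRG1, limma called 0 with the block or without it, beside 13.9% and 3.91% of all genes. In either fit 0 of them had an unadjusted p under 0.05, beside 3975 and 3048 of all 14147 genes.

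Genes that assemble or regulate the pump did not pass either. Of 12 listed, 10 were on the array and 7 were tested. With the block limma called 0 of the 7, beside 13.9% of all genes. An unadjusted p under 0.05 was reached in that fit by 3 of the 7, beside 3975 of all 14147 genes. MEAK7, a TLDc-domain protein of the lysosome, had changes of 0.35 and 0.88 (limma's adjusted p = 0.0560). Its 4 levels, 5.16 to 6.03, lay within the range of the markers of other cell types. NCOA7, another TLDc-domain protein, had changes of 0.40 and 0.41 from dim control levels of 3.51 and 3.42, and TLDC2 had changes of -0.49 and -0.39. The assembly factor VMA21 had changes of 0.02 and -0.28, and the RAVE subunit ROGDI, which helps V1 rejoin V0, had changes of -0.26 and -0.36. WDR7, another RAVE-associated gene and dim here, had changes of 0.35 and 0.00, and TBC1D24 had changes of 0.07 and 0.04.

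The MiT/TFE transcription factors, which drive lysosomal and V-ATPase genes from E-box sites, did not pass at the transcript level. TFEB read 5.94 and 5.95 in controls and 6.04 and 5.92 after anti-miR-191, all within the range of the markers of other cell types. TFE3 had changes of 0.28 and 0.92 (limma's adjusted p = 0.0723), and MITF, near the limit for dim rows, had changes of -0.23 and 0.25. Of the 8 tested factors and regulators 1 rose and 0 fell, beside 10.1% and 3.77% of all genes. In limma's fit with the block 3 of the 8 had an unadjusted p under 0.05, beside 3975 of all 14147 genes. FLCN, the folliculin gene whose product controls these factors through Rag GTPases, rose by 0.64 ± 0.16 (limma's adjusted p = 0.0358). FLCN lost its call without the block (limma's adjusted p = 0.0991), after quantile normalization (0.0995) and after cyclic loess (0.0577).

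**Figure D4:**
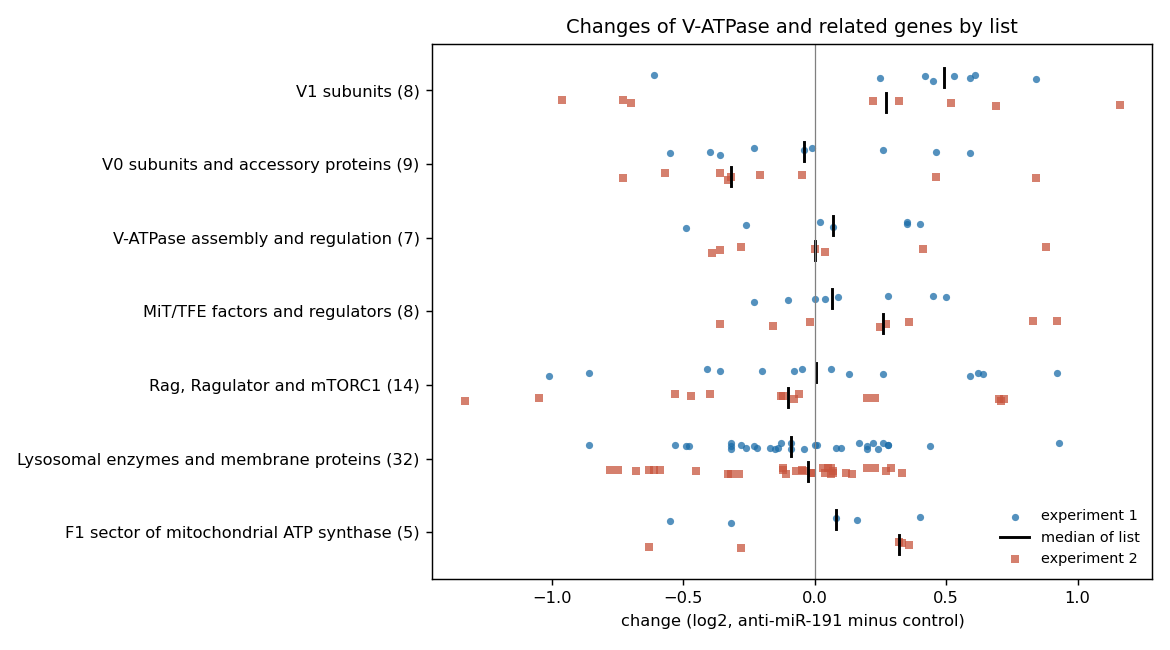
Changes of each tested gene (log2, anti-miR-191 minus control, x axis) in experiments 1 (circles) and 2 (squares) by gene list (y axis, number tested in brackets), with the list's median as a black bar. The V1 medians lie at 0.49 and 0.27, and those of the other 6 lists drawn lie between -0.32 and 0.32.

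Subunits of the lysosomal platform that senses amino acids with the V-ATPase both rose and fell. Of 14 Rag, Ragulator and mTORC1 genes tested, 2 rose and 2 fell, beside 10.1% and 3.77% of all genes, with median changes of 0.00 and -0.10. Of the Ragulator scaffold, LAMTOR4 fell by 1.17 ± 0.15 (changes of -1.01 and -1.33; limma's adjusted p = 0.00496) and LAMTOR2 fell by 0.96 ± 0.15 (limma's adjusted p = 0.00781), whereas LAMTOR3 rose by 0.67 ± 0.14 (limma's adjusted p = 0.0228). All 4 levels of LAMTOR3 lay within the range of the markers of other cell types (4.50 and 4.80 in controls, 5.14 and 5.50 after anti-miR-191). So did those of LAMTOR2 after anti-miR-191 (5.84 and 5.86), and the sizes of both genes' differences are uncertain. RPTOR, the substrate-binding subunit of mTORC1, rose by 0.65 ± 0.15 (limma's adjusted p = 0.0251). Without the block, LAMTOR4 and LAMTOR2 still passed (limma's adjusted p = 0.0309 and 0.0348), while LAMTOR3 and RPTOR did not (0.119 and 0.0709). RPTOR also lost its call after quantile normalization (0.0688).

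Lysosomal enzymes and membrane proteins, which work in the space that the pump acidifies, included 2 genes that fell. Of 32 tested, 0 rose and 2 fell, beside 10.1% and 3.77% of all genes, with 5 at an unadjusted p under 0.05 in limma's fit with the block (3975 of 14147 over all genes), and the median changes were -0.09 and -0.02. NPC2, which hands cholesterol to NPC1, fell by 0.80 ± 0.15 (limma's adjusted p = 0.0130). TPP1, a tripeptidyl peptidase, fell by 0.56 ± 0.14 (limma's adjusted p = 0.0418) and did not pass without the block (0.144). LAMP1, a major protein of the lysosomal membrane, had changes of 0.08 and 0.12, and the protease CTSD had changes of -0.49 and -0.45. Changes of opposite sign were seen for 12 of the 32, beside 30.4% of all genes. Among them, named after their values were seen, acid ceramidase ASAH1 had changes of 0.28 and -0.78 and acid lipase LIPA of 0.28 and -0.63. All 4 levels of LIPA (5.03 to 5.91) lay within the range of the markers of other cell types. So did that of ASAH1 after anti-miR-191 in experiment 2 (6.05).

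The mitochondrial ATP synthase is the evolutionary relative of the V-ATPase, and its F1 sector corresponds to V1. Of 5 genes tested, 0 rose and 1 fell, beside 10.1% and 3.77% of all genes. In limma's fit with the block 2 of the 5 had an unadjusted p under 0.05, beside 3975 of all 14147 genes. Named after their values were seen, the catalytic-ring subunits ATP5F1A and ATP5F1B, which correspond to the B and A subunits, had changes of 0.40 and 0.32 and of 0.08 and 0.33. ATP5F1C, of the rotor like ATP6V1D, had changes of 0.16 and 0.36. ATP5F1D, also of the rotor, read 9.15 and 8.95 in controls and 8.60 and 8.32 after anti-miR-191, and fell by 0.59 ± 0.14 (limma's adjusted p = 0.0341; 0.117 without the block). No changes of opposite sign were seen among these 5, and the difference from V1 was not tested.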

How the data were processed

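For the 4 arrays, log2 intensity values were deposited by the authors in 1 table. Per the submitters' processing notes it was made by RMA in Affymetrix Expression Console, a method that removes background, normalizes across arrays and combines the probes of a transcript. Software version, annotation release, genome build and the set of arrays normalized jointly were "not given in the sources used here". That the logarithm has base 2 was inferred from RMA's habit and the values. Array intensities carry no read depth, and precision rests on the number of arrays.

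The table has 33297 rows, of which 19460 had 1 gene symbol in the platform annotation of 2016, 1754 had several and 12083 had none. By Entrez identifier 19429 rows were found in the RefSeq gene table (GRCh38.p14). The symbols supplied with the annotation already equalled those of that table, so 0 were changed. They need not be the symbols of the 2016 release. Rows in the lowest 33.3% by mean level (under 3.41) were dropped and each gene kept its brightest row, leaving 14147 genes.

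These were fitted with limma 3.58.1 under R 4.3.3 (lmFit, eBayes), and p-values were two-sided and adjusted by Benjamini-Hochberg over the whole table, with a threshold of 0.05. The experiment was a block, since the series text calls the duplicates independent studies and the titles give each group the numbers 1 and 2. As a check, same-numbered arrays deviated together from their group means (r = 0.335 across genes, 1 value only, as each group has 2 arrays). The p-values thus compare the size of a change with the disagreement of both experiments, moderated by limma towards a variance shared by all genes. The fit with the block has 1 residual and 6.6 prior degrees of freedom, so the shared variance carries most of the weight. The unblocked fit is quoted where it alters a call. Both fits were tested on simulated data, in which 200 genes changed and both groups shared a difference between the experiments. Changes of 1 log2 unit were called for 85% of genes with the block and 8% without it. Changes of 2 log2 units were called for 100% and 90%. Of 13947 unchanged genes 10 and 0 were called. Since the simulated difference between the experiments was the same in both groups, the gain from the block was built in. These shares therefore do not show how well either fit works on the real arrays, where r was 0.335. Members and gene lists were chosen with earlier results of these data known, so no list was given a set test or a p of its own.

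Genes named were, by rule, every tested V1, V0, accessory and assembly gene, up to 6 members past the threshold in each other list, TFEB, TFE3, MITF, LAMP1 and CTSD in any case, isoforms of other tissues by level, and the 4 genes nearest to ATP6V1A and to ATP6V1C1. The hepatocyte markers, ASAH1, LIPA, ATP5F1A, ATP5F1B and ATP5F1C fall outside this rule, except TTR, and were named after their values were seen. The alternatives tried concerned the block, dim rows, array scaling, genes with several rows, and each array left out. Figures were drawn with matplotlib 3.10.9.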

Additional observations from a re-analysis of the deposited data

How the results depend on the processing

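Without the block the count over all genes was 553 in place of 1961, with 3048 of 14147 at an unadjusted p under 0.05 in limma. Limma without the block called 0 V0 and accessory genes (5 at an unadjusted p under 0.05), 0 MiT/TFE genes (3), 2 Rag, Ragulator and mTORC1 genes, 1 lysosomal gene and 0 F1 genes (1), in place of 2, 1, 4, 2 and 1. Quantile normalization, which gives all arrays the same spread, lowered the count over all genes in limma's fit with the block to 1419. Of these, 896 were higher and 523 lower, in place of 1428 and 533. The mean changes of ATP6V1B2, ATP6V1E1 and ATP6V1H became 0.29, 0.43 and 0.27, in place of 0.42, 0.57 and 0.38. Those of ATP6V1D and ATP6V1F, 0.97 and -0.81, moved little. Quantile normalization and cyclic loess each left 0 called MiT/TFE genes in limma's fit with the block. In each, 3 of these genes had an unadjusted p under 0.05, beside 3783 and 3881 over all genes. The filters on dim rows (none, or rows under the median left out), median centring and the mean of a gene's rows kept each of these counts within 1.5 times its value.

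With 1 array left out, the fit with the block has no residual degrees of freedom, so such fits had no block, and the lone array of a group was assumed to vary like the other group. The count over all genes was then between 0 and 339. It was 339 when the first experiment's anti-miR-191 array was left out. It was 0 when the second experiment's anti-miR-191 array, or the control of experiment 1 or 2, was left out, with 1663, 2432 and 3178 genes at an unadjusted p under 0.05 in limma. The V0, assembly, MiT/TFE, Rag, lysosomal and F1 lists, the 6 recomputed, had 0 called genes in these fits, with between 0 and 6 genes per list at an unadjusted p under 0.05. The median change of the 8 V1 subunits, 0.35 over both experiments, was between 0.20 and 0.49 with 1 array left out, and 0.27 after quantile normalization. Single members moved by more than the SD of their 2 changes for ATP6V1E1 (0.35 to 0.80), ATP6V1H (0.11 to 0.66) and ATP6V1G1 (0.16 to 0.48). ATP6V1A (-0.55 to 0.44) and ATP6V1C1 (-0.44 to 0.33) moved over wider ranges and changed sign. They stayed within their SDs only because these were large (0.95 and 0.91).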

Other observations

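The genomic span of the gene, from the RefSeq gene table, was available for all 8 V1 subunits and for 14136 of the 14147 genes tested. ATP6V1F, the member with negative changes in both experiments, had the shortest span, 2.99 kb, and the genes tested were split into 4 classes of 3534 by span. In the class with the shortest spans (up to 8.40 kb), which holds ATP6V1F, the medians of the changes were -0.10 and -0.07 in experiments 1 and 2, with 8.69% of genes lower in limma's fit with the block. In the class with the longest spans (from 59.3 kb), which holds ATP6V1A and ATP6V1H, the medians were 0.15 and 0.03, with 0.849% of genes lower. ATP6V1D, with the largest mean change, spans 21.9 kb, and ATP6V1C1 spans 52.0 kb. Of the V0 and accessory genes, ATP6V0E2 (7.75 kb), ATP6V0B (3.34 kb), ATP6V0C (6.49 kb) and ATP6AP1 (7.84 kb) lie in the shortest class. All 4 had negative changes in both experiments, as did 33.0% of all genes tested. The share within the shortest class, which leaned lower, was not computed, so nothing is read from this contrast. ATP6V0E1 (51.7 kb) and ATP6V0D1 (43.1 kb), from the class of 23.3 to 59.3 kb, also had negative changes in both. The part of span in these values was not tested.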
